A study of Drosophila melanogaster with 10 samples.

Results

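The genes described here encode subunits of the Mediator complex of *Drosophila melanogaster*. A gene was taken when its current symbol was MED followed by a number, or was *skd*, *kto*, *CycC* or *Cdk8*, and when the platform annotation pairs a probe set with that gene alone. This gave 26 genes with 27 probe sets, out of 11982 genes with a probe set of their own and 18769 probe sets tested. Only *skd* had more than 1 probe set, and the brighter one was used. *MED9* and *MED23* share their probe sets with another gene, and for *MED22* the annotation used lists none, so these genes were not analysed here. The rule itself used no measured value, apart from the overall brightness that settled which *skd* probe set was used. The members were, however, chosen with earlier results of these data known. Their shares beside those of all genes are therefore a description and not a test.

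Testes of males aged 0 to 2 days were compared between *w1118*, which served as wild-type, and homozygous *tbrd-1* mutants (genotype tbrd-11/tbrd-11 in the labels), which carry a P element in *tbrd-1*. Each genotype was measured on 5 Affymetrix Drosophila Genome 2.0 arrays, and the RNA on each array came from a separate pool of 25 animals. The labels name no treatment, the mutant is 1 allele in 1 line, and the arrays include no rescued flies. The organ is a mixture of germ cells, somatic cyst cells and a muscle sheath, so fewer cells of a type and less RNA per cell cannot be told apart. Genes of the accessory gland were bright on all arrays, and those of the ejaculatory bulb and gut on some, as given below. The samples may therefore hold RNA of other organs, and its share of the Mediator signals was not measured.

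Mediator is a large coactivator that bridges transcription factors bound at enhancers and RNA polymerase II at the promoter. Its subunits form a head and a middle module, which contact the polymerase, a tail module, which is reached by many activators, and a separable kinase module, with MED14 as the backbone of the core. The head and middle are needed for most transcription by RNA polymerase II, while the kinase module can hold the polymerase away from the core. Primary spermatocytes, the germ cells that express tBRD-1, transcribe at a high rate the messages that spermatids use later.

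The targeted gene separated the genotypes. Signals of *tbrd-1* lay between 630 and 975 on the wild-type arrays and between 10 and 16 on the mutant arrays. Signal here is the deposited intensity, on a linear scale and without detection calls, and the median over all probe sets was between 68 and 78 on every array. Of 13 spermatocyte and spermatid markers, 6 were higher and 2 were lower in the mutant by the adjusted p used for the Mediator genes, and their mean log2 signal was 9.43 to 9.69 in wild-type and 9.64 to 9.82 in the mutant, which overlap. Their summed signal, most of it from *Mst77F* and *Mst87F*, was 41280 to 44652 in wild-type and 47976 to 51507 in the mutant and did not overlap. Among them the testis TAF genes *can* and *mia* moved in opposite directions, by -1.11 and 1.65 on the log2 scale. Of 4 genes of somatic testis cells *tj* alone was higher (0.37), from a mean signal of 16.4 to 21.2, and *upd1* had 14.8 and 15.6. These signals are about as low as that of *tbrd-1* in its mutant, so neither gene can be taken as detected. Of 4 muscle genes *Mlc2* alone was lower (-0.42). The part of these cell type markers in the Mediator values was not tested. Accessory gland genes were bright on all arrays, with a mean log2 signal between 13.7 and 13.9. Genes of the ejaculatory bulb varied between arrays of the same genotype, with a mean log2 signal from 5.25 to 13.2 in wild-type and from 6.63 to 13.4 in the mutant. Digestive enzyme genes of the gut were brighter on wild-type replicates 1, 3 and 4 (mean log2 signal 9.0, 9.0 and 7.81) and on mutant replicate 3 (7.53) than on the other arrays, where it was at most 6.06.

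In *tbrd-1* mutant testes 10 of the 26 Mediator genes had a higher signal and 1 had a lower signal, while 15 did not pass the test. The test was limma's moderated statistic on log2 signals, fitted over all probe sets, and a gene passed at a Benjamini-Hochberg adjusted p no greater than 0.05. Of all probe sets 21.6% were higher and 14.7% were lower by this rule. With 1 probe set per gene these shares were 22.8% and 19.2%, as compared with 38.5% and 3.85% of the Mediator genes. When a change by a factor of 2 was also required, *MED17* alone remained, as up-regulated. None was down-regulated. The 1 lower gene, *MED6*, passed limma's adjusted p (0.00044) but at -0.53 missed the fold minimum. Among the probe sets used it was also the only lower one with an unadjusted p below 0.05 from limma. The methods' t-test with the fold minimum also called 0 down-regulated, and *MED17* alone up-regulated. By limma's adjusted p with the fold minimum 1.18% of all probe sets were up-regulated and 2.36% were down-regulated, or 1.4% and 3.06% of genes.

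The log2-fold changes, mutant minus wild-type, ran from -0.53 to 1.45 with a median of 0.21. The median over all genes was 0.03 and that over all probe sets 0.07. In 20 of 26 Mediator genes (76.9%) the mutant mean was the higher one, as it was in 53.6% of all genes. Centring each array on its median signal moved the median of all probe sets to 0.17 and that of the Mediator genes to 0.31. Of these genes 16 (61.5%) were then higher by the adjusted p, as were 33.4% of all genes. Scaling on ribosomal protein probe sets moved these medians to 0.04 and 0.18. By the adjusted p 7 members (26.9%) were then higher, as were 17.9% of all genes. The groups did not overlap for 7 members, 6 with every mutant array above every wild-type array and 1 with every mutant array below. These are 23.1% and 3.85% of the members, as compared with 16.3% and 13.8% of all genes. Among all probe sets 13.6% were separated upwards and 10.3% downwards.

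**Figure D1:**
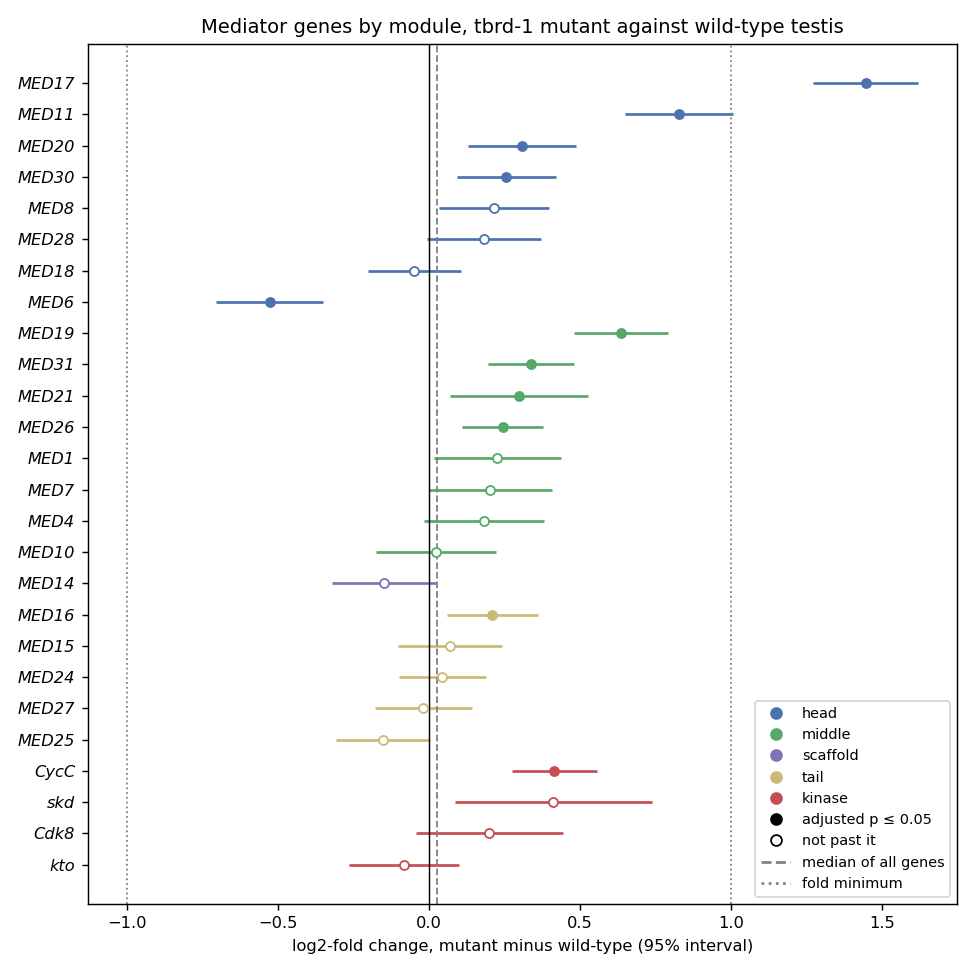
Log2-fold change of the 26 Mediator genes, mutant minus wild-type, on the horizontal axis, with 95% intervals from limma, ordered by module on the vertical axis. Filled points passed an adjusted p of 0.05. *MED17* at 1.45 lies beyond the dotted fold minimum and *MED6* at -0.53 is the single filled point left of 0, while the dashed line is the median of all genes at 0.03.

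*MED17* had the largest change. Its product is the central subunit of the head, on which the other head subunits assemble, and its yeast counterpart is required for nearly all transcription by RNA polymerase II. On the wild-type arrays, replicates 1 to 5, the signal of *MED17* (CG7957, chromosome arm 3R) was 168, 190, 170, 165 and 206. On the mutant arrays it was 504, 521, 429, 503 and 490. All mutant arrays lay far above all wild-type arrays. The mean rose from 180 to 489 (SD 17.6 and 35.5 over 5 arrays each), a 2.73-fold difference, giving a limma log2-fold change of 1.45 ± 0.08 (SE; adjusted p = 1.8e-07). A two-sided exact permutation test gave p = 0.0079, the smallest that 5 against 5 arrays allow. The log2-fold change stayed between 1.35 and 1.55 over all 23 alternatives, and the gene passed in each.

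*MED11*, on 3L, encodes a small head subunit that in yeast pairs with MED22 and sits near the docking site of TFIIH. Its wild-type signals were 119, 146, 131, 128 and 141, and its mutant signals were 254, 202, 250, 249 and 227. Here too the groups lay well apart, with the lowest mutant array, replicate 2, far above the highest wild-type array. The limma log2-fold change was 0.83 ± 0.08 (SE; adjusted p = 1.5e-05), which is 1.78-fold and short of the fold minimum. It lay between 0.69 and 0.97 over the alternatives and passed in all of them.

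*MED6* moved the other way. Its product lies where head and middle meet and contacts the polymerase. In wild-type the signals of *MED6* (3R) were 243, 283, 227, 293 and 251, and in the mutant they were 177, 191, 160, 185 and 184. All mutant arrays were below all wild-type arrays. The mean fell from 259 to 179 (SD 27.7 and 11.9 over 5 arrays each), giving a limma log2-fold change of -0.53 ± 0.08 (SE; adjusted p = 0.00044), and it passed in every alternative at -0.64 to -0.42. *MED6* and *MED17* are thus subunits of the same module whose intervals lie on opposite sides of 0, -0.71 to -0.35 for *MED6* and 1.27 to 1.62 for *MED17*.

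Of the other 5 head genes, *MED20* and *MED30* rose and *MED8*, *MED28* and *MED18* did not pass. MED20 forms a movable part of the head together with MED18 in yeast. The wild-type signals of *MED20* were 276, 364, 274, 299 and 308 and the mutant signals 399, 359, 359, 399 and 359. Wild-type replicate 2 reached into the mutant range, and the other wild-type arrays lay below it. The limma log2-fold change was 0.31 ± 0.08 (SE; adjusted p = 0.013).

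MED30 is a subunit found in animals and not in budding yeast. The signal of *MED30* was 403, 471, 405, 482 and 492 in wild-type and 539, 570, 489, 532 and 553 in the mutant, so that the groups met at 489 to 492. Its log2-fold change was 0.26 (limma, adjusted p = 0.021). Without wild-type replicate 1 it was 0.22 and no longer passed (adjusted p = 0.053). *MED8*, whose yeast counterpart anchors MED18 and MED20 to the head, and *MED28* had log2-fold changes of 0.21 and 0.18 (adjusted p = 0.065 and 0.12 from limma). *MED8* passed without wild-type replicate 2 or 5 (adjusted p = 0.035 and 0.030), and *MED28* had 0.11 without wild-type replicate 3. *MED18*, the partner of MED20, had -0.05, with an interval from -0.20 to 0.11. An increase of *MED18* as large as the fitted value of *MED20* therefore lies outside its interval, but the difference between these genes was not tested.

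The module of MED19, MED28 and MED30 differs between structures of the complex, and here MED19 was counted in the middle and MED28 and MED30 in the head. All 8 genes counted in the middle module had a positive log2-fold change, and 4 passed the test. In the head 6 of 8 were positive and 4 were higher, and the median log2-fold change was 0.23 in both modules. Of all genes 53.6% had a higher mean in the mutant and 22.8% were higher by the test. Among the middle genes *MED19* changed most. In *Drosophila* its product links Mediator to Hox transcription factors. The wild-type signals of *MED19* (3L) were 382, 392, 373, 444 and 370 and the mutant signals 591, 646, 542, 639 and 631. Every mutant array was above the highest wild-type array, replicate 4. The mean went from 392 to 610 (SD 30.2 and 43.5 over 5 arrays each), giving a limma log2-fold change of 0.64 ± 0.07 (SE; adjusted p = 4.2e-05), and it passed in all alternatives, at 0.51 to 0.78.

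*MED31*, which encodes one of the most conserved subunits, had wild-type signals of 613, 731, 631, 675 and 588. Its mutant signals were 849, 830, 805, 806 and 792, with the smallest spread of any member (SD 0.04 on the log2 scale). The groups did not overlap, and the limma log2-fold change was 0.34 ± 0.06 (SE; adjusted p = 0.0019). *MED26* encodes a subunit that in human cells recruits elongation factors. It was measured at 1169, 1271, 1117, 1227 and 1103 in wild-type and at 1484, 1472, 1322, 1346 and 1344 in the mutant. These groups were also apart, and the limma log2-fold change was 0.24 ± 0.06 (SE; adjusted p = 0.0098). *MED26* lies on chromosome 4.

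*MED21* encodes a subunit that in yeast forms the hinge of the middle module with MED7. Its signal was 269, 313, 261, 305 and 311 in wild-type and 357, 313, 339, 461 and 335 in the mutant. Mutant replicate 4 stood above the rest and mutant replicate 2 equalled the highest wild-type array. The log2-fold change of 0.30 passed narrowly (SE 0.10; limma, adjusted p = 0.043). It did not pass with the methods' t-test (adjusted p = 0.074), nor with the replicate number as a block (0.052). Leaving out arrays one at a time also ended it, at adjusted p of 0.097, 0.094 and 0.061 without wild-type replicates 1, 3 and 4. Without mutant replicates 1, 3, 4 and 5 the values were 0.078, 0.056, 0.057 and 0.056, and the log2-fold change without mutant replicate 4 was 0.21. *MED1*, whose product binds nuclear receptors in mammals, and *MED7*, *MED4* and *MED10*, which encode conserved parts of the middle, had log2-fold changes of 0.23, 0.20, 0.18 and 0.02 and did not pass. Without mutant replicate 3 *MED1* had 0.30 and passed (adjusted p = 0.022).

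**Figure D2:**
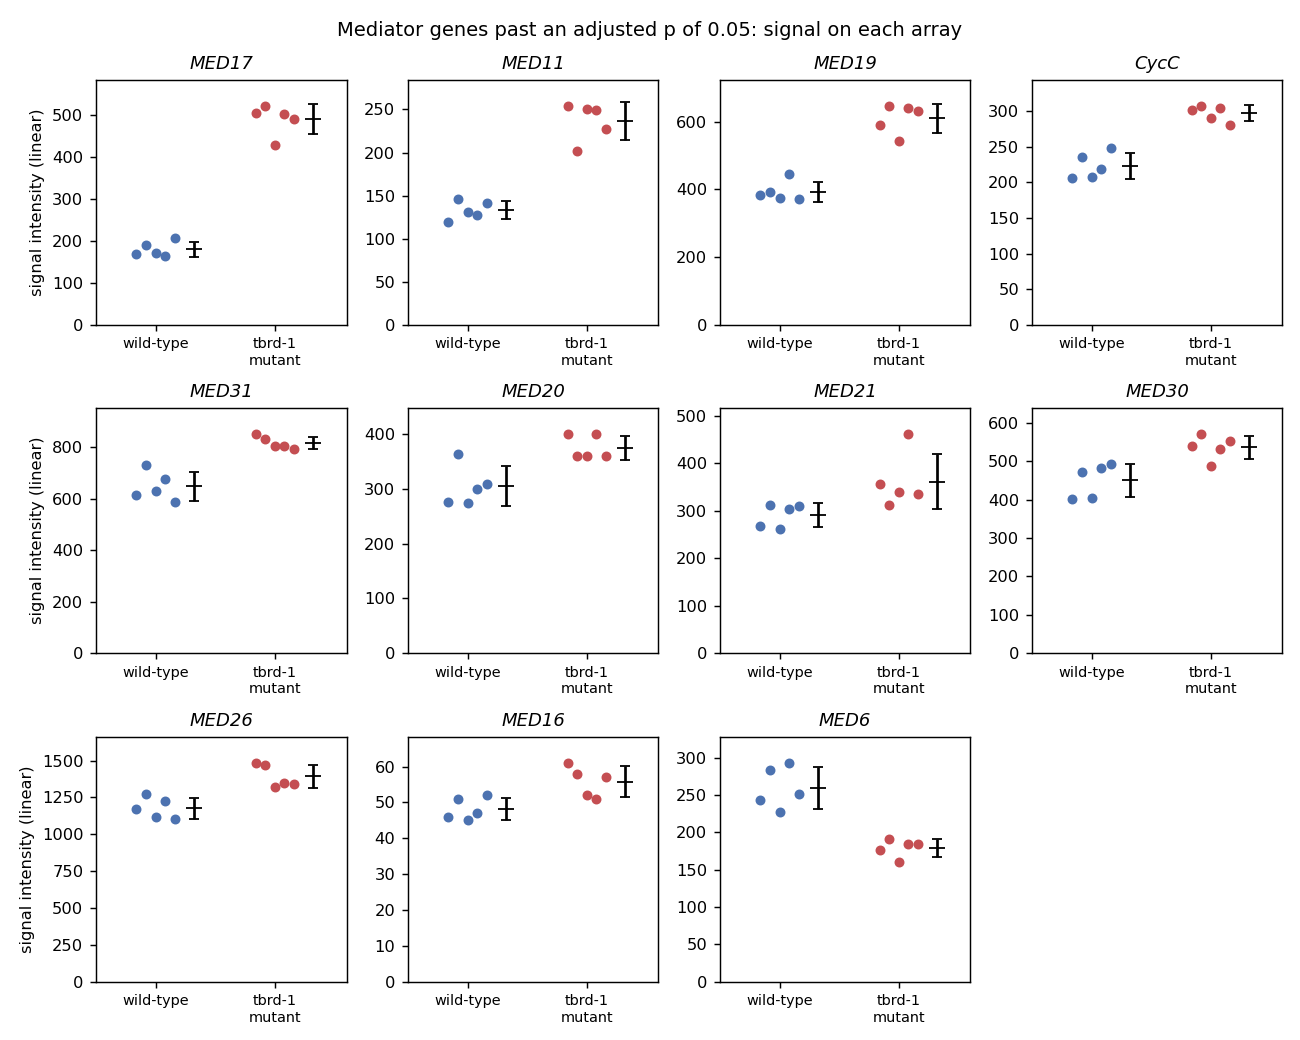
Signal intensity on a linear axis from 0 for the 11 Mediator genes that passed the test, with 1 point per array in order of replicate number (blue wild-type, red *tbrd-1* mutant) and the mean ± SD of 5 arrays beside them. For *MED17* the mutant points sit between 429 and 521 and the wild-type points between 165 and 206. For *MED16*, *MED20*, *MED21* and *MED30* the groups meet or overlap.

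Of the 5 tail genes measured *MED16* alone passed, as higher, and 22.8% of all genes were higher by the same test. The median log2-fold change of the tail genes was 0.04, as compared with 0.03 over all genes. *MED16* encodes a tail subunit that in the fly takes part in the induction of immune genes. Its signals were low, at 46, 51, 45, 47 and 52 in wild-type and 61, 58, 52, 51 and 57 in the mutant, and the groups overlapped. The log2-fold change of 0.21 (SE 0.07; limma, adjusted p = 0.033) was lost in 11 of 23 alternatives. Without wild-type replicates 1, 3 and 4 the adjusted p was 0.078, 0.073 and 0.068. Without mutant replicates 1, 2 and 5 it was 0.083, 0.070 and 0.070, and with a mean-variance trend it was 0.0502.

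*MED15*, whose product is a target of activators, and *MED24* had log2-fold changes of 0.07 and 0.04. *MED27* had -0.02, with an interval from -0.18 to 0.14, so that a change of the size seen for *MED6* or *MED19* lies outside it. *MED25* had -0.15 (limma, adjusted p = 0.11). *MED14*, the backbone that joins head, middle and tail, also had -0.15, with wild-type signals from 255 to 302 and mutant signals from 214 to 268 (adjusted p = 0.16).

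In the kinase module *CycC* rose and *Cdk8*, *kto* and *skd* did not pass. This is 1 of 4 genes, and 22.8% of all genes were higher by the same test. Cyclin C activates the kinase Cdk8, and kto and skd are the fly's MED12 and MED13, large proteins that tie the kinase to the core and act in Wingless signalling. *CycC* (3R) had wild-type signals of 206, 235, 208, 218 and 248 and mutant signals of 302, 307, 290, 304 and 280. No mutant array came below the highest wild-type one. The mean rose from 223 to 297 (SD 18.1 and 11.3 over 5 arrays each), giving a limma log2-fold change of 0.41 ± 0.06 (SE; adjusted p = 0.00046).

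*Cdk8*, the partner of cyclin C, had a log2-fold change of 0.20 with an interval from -0.04 to 0.44, which includes the fitted value of *CycC*. It no longer did without mutant replicate 4, where *Cdk8* had 0.12 (interval -0.09 to 0.33), or without wild-type replicate 1, where it had 0.14 (interval -0.10 to 0.38). Its signals, 36 to 48 in wild-type and 43 to 62 in the mutant, lay below the array medians. *kto* had -0.08 (interval -0.27 to 0.10), with wild-type signals of 385 to 522 around mutant signals of 403 to 463. The 2 probe sets of *skd* pointed in opposite directions. On the brighter one the signal was 76, 63, 78, 96 and 55 in wild-type and 91, 114, 77, 98 and 105 in the mutant, giving a limma log2-fold change of 0.41 ± 0.15 (SE; adjusted p = 0.0502). On the dimmer one it was 49, 38, 41, 52 and 43 in wild-type and 33, 39, 35, 41 and 42 in the mutant, with a log2-fold change of -0.23 (adjusted p = 0.097). The groups overlapped on both. The brighter probe set passed without wild-type replicate 4 (adjusted p = 0.016) and without mutant replicate 3 (adjusted p = 0.028), and with the median of both probe sets in its place the log2-fold change was 0.09. No direction can therefore be given for *skd*.

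**Figure D3:**
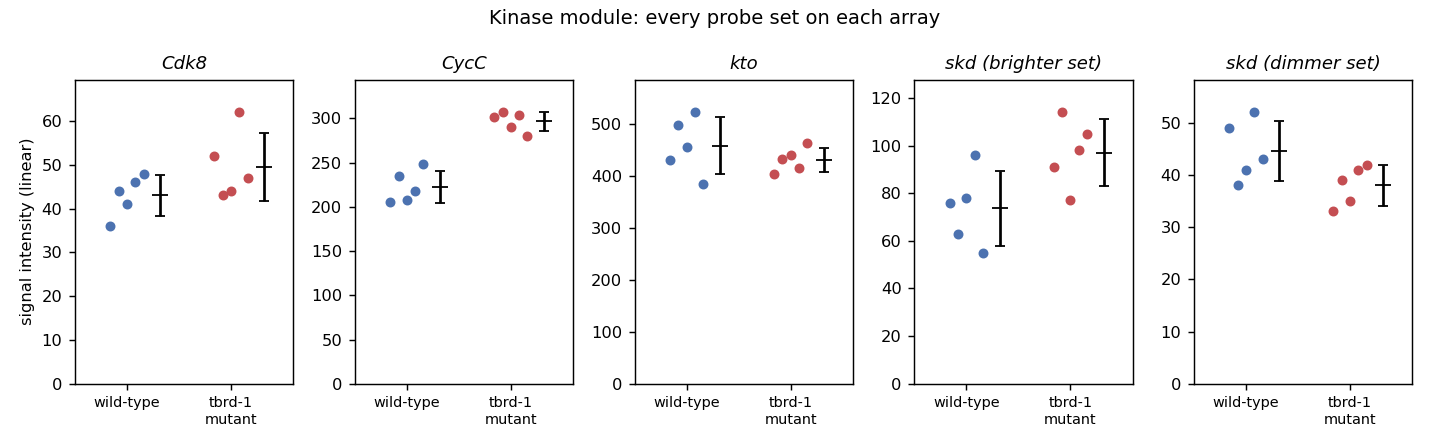
Signal intensity on linear axes from 0 for the 5 probe sets of the kinase module, with 1 point per array in order of replicate number (blue wild-type, red *tbrd-1* mutant) and mean ± SD of 5 arrays. *CycC* is the one panel without overlap, and the brighter and dimmer probe sets of *skd* lean in opposite directions.

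Taking each gene's log2 signal minus the mean of the other 25 members on the same array removes what the members share on that array. This was done for the 5 genes with the largest absolute changes among those that passed, a choice made after their values were seen. That these genes depart from the other members follows from the choice, so the values are a description. For *MED17* this difference was -0.73 to -0.35 in wild-type and 0.65 to 0.85 in the mutant, a shift of 1.27 as compared with 1.45 for the gene alone. *MED11* shifted by 0.63 and *MED19* by 0.43 relative to the other members, with no overlap between genotypes. *CycC* shifted by 0.20 and its groups met, from -0.31 to -0.07 in wild-type and from -0.08 to 0.06 in the mutant. *MED6* shifted by -0.78, from between -0.08 and 0.13 to between -0.83 and -0.66.

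**Figure D4:**
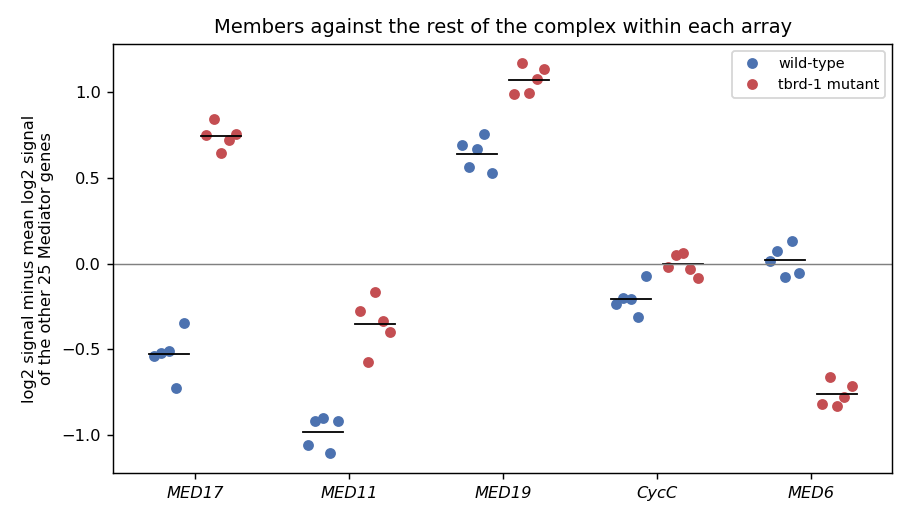
Log2 signal of 5 Mediator genes minus the mean log2 signal of the other 25 on the same array (vertical axis), 1 point per array and a line at the mean of 5. The height of a gene depends on its probes and only the step from wild-type (blue) to mutant (red) is to be read, which is upwards by 1.27 for *MED17* and downwards for *MED6*.

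The arrays also differed in the members' common level. The mean log2 signal over the 26 genes was 7.90 to 8.07 on the wild-type arrays and 8.12 to 8.28 on the mutant arrays, without overlap. Within each genotype the lowest array was one of those bright in gut enzymes. The same arrays, replicate 3 of both genotypes, had the highest muscle level of their group (mean log2 signal 8.69 and 8.34) and the lowest germ cell level (9.43 and 9.64). The part of these in the members' level was not tested. Wild-type replicate 3 was the lowest of its group for 11 of the 26 genes and mutant replicate 3 for 11. Wild-type replicate 4, also bright in gut enzymes, was the highest of its group for 8, and wild-type replicate 2, which was not bright in them, for 11. Without the 4 arrays bright in gut enzymes, 5 genes (19.2%) were higher and 1 was lower, as compared with 12.2% and 12.7% of all genes, and the median log2-fold change was 0.14 in place of 0.21. *MED17* (1.35), *MED11* (0.69), *MED19* (0.72), *CycC* (0.30) and *MED6* (-0.53) still passed and the brighter probe set of *skd* then did (0.79, adjusted p = 0.0046 from limma). *MED20* had 0.18 (adjusted p = 0.28), *MED30* 0.19 (0.10), *MED26* 0.25 (0.11), *MED31* 0.32 (0.071), *MED21* 0.22 (0.40) and *MED16* 0.14 (0.34). Fewer arrays remained for these fits.

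Without the arrays bright in ejaculatory bulb genes, which were replicates 2 and 3 of wild-type and 2, 4 and 5 of the mutant, an alternative chosen after the data were seen, 3 genes (11.5%) were higher and 1 was lower, as compared with 7.05% and 7.98% of all genes. These were *MED17* (1.38), *MED11* (0.97), *MED19* (0.51) and *MED6* (-0.64). *CycC* kept its value at 0.41 but had an adjusted p of 0.071 from limma with the 5 arrays left. *MED31* had 0.41 (0.052), *MED20* 0.36 (0.069), *MED26* 0.27 (0.13), *MED21* 0.24 (0.17), *MED16* 0.22 (0.24) and *MED30* 0.17 (0.40).

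The spread between arrays of 1 genotype was small for most members. The median SD of the log2 signal over the 26 genes was 0.13 in wild-type and 0.11 in the mutant, and 17 genes varied more in wild-type. The SD was largest for the brighter probe set of *skd* in wild-type, at 0.31. For the 15 genes that did not pass, the log2-fold changes ran from -0.15 to 0.41, with 10 above 0 and 5 below. Their 95% intervals reached from -0.32 to 0.74, and 14 of them had a log2-fold change of at most 0.25 in size. A 2-fold change lies outside the interval of each of these 15 genes.

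In the Release 6 gene table the members lie on several chromosome arms, 12 on 3L, 8 on 3R, 2 on 2L, 2 on 2R, 1 on X and 1 on 4. The median log2-fold change was 0.21 on 3L and 0.19 on 3R, the arm of *tbrd-1*. *MED17* is separated from *tbrd-1* by 818 genes in that table. *CG12321*, next to *MED17*, measured 1677 ± 181 against 1716 ± 80.6 (SD of 5 wild-type and 5 mutant arrays). *CG14313*, which overlaps *MED17*, measured 16.6 ± 1.14 against 17.8 ± 2.28, about as low as *tbrd-1* in its mutant, so nothing can be read from it.

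For some other members that passed, a neighbour did move. The neighbours of *CycC*, *MED16*, *MED20* and *MED26* did not pass the adjusted p. Of all genes 22.8% were higher and 19.2% were lower by it, so a neighbour past it is not unusual. *Nufip* overlaps *MED11* and fell, with a log2-fold change of -0.46 (limma, adjusted p = 0.00044), opposite to *MED11*. Both neighbours of *MED6* overlap it in the table, *CG8478* with -0.23 (adjusted p = 0.099) and *Naa80*, which fell by 0.24 on the log2 scale (adjusted p = 0.014). *slx1* overlaps *MED31* and rose by 0.36 on the log2 scale (adjusted p = 0.012), as *MED31* did by 0.34, while its other neighbour *CG9775* fell by 0.31 (adjusted p = 0.0036). *CG3402*, next to *MED30*, rose by 0.35 (adjusted p = 0.022). *UQCR-11*, next to *MED21*, had -0.33 (adjusted p = 0.0098) at signals of 17.6 and 14, again as low as *tbrd-1* in its mutant. Both neighbours of *MED19*, *CG5567* and *CG7430*, fell slightly, by 0.19 and 0.21 on the log2 scale. Whether the probes of overlapping genes measure each gene alone was not tested.

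Among genes that act with Mediator, some rose and others did not pass. *ix*, the fly gene for MED29, does not carry a MED symbol and was no member. Its log2-fold change was 0.22 (limma, adjusted p = 0.071). Of 6 subunits of RNA polymerase II with a probe set of their own, 3 rose, 0 fell and 3 did not pass, with a median of 0.21. They were *Polr2E*, *Polr2G*, *Polr2H*, *Polr2J*, *Polr2K* and *Polr2L*, so *Polr2A* and *Polr2B* were not among them. Of all genes 22.8% were higher by the same rule, and so few genes cannot show a rise of the whole polymerase. *Polr2G* had 0.42, *Polr2L* 0.42 and *Polr2H* 0.23, each without overlap between genotypes, while *Polr2K* had -0.17 (adjusted p = 0.34). Of 7 genes for elongation factors, *CycT*, the cyclin of P-TEFb, rose from 675 to 1041 (SD 89.4 and 95.6 over 5 arrays each), giving a limma log2-fold change of 0.63 ± 0.10 (SE; adjusted p = 0.00047). Its kinase partner *Cdk9* had 0.02 (adjusted p = 0.85), and the NELF and DSIF genes measured lay between -0.12 and 0.06.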

How the data were processed

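The authors deposited 1 table of signal intensity for 18952 probe sets on 10 arrays, normalized by RMA and, according to the submitters' processing notes, made in Affymetrix Expression Console. Its version is not given in the sources used here. These values are linear and rounded to whole numbers, and every column was assigned by its sample name. RMA equalizes the arrays, so a change shared by most genes cannot be seen. Arrays have no read depth, and their number limits the precision.

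After 183 control probe sets were left out, log2 was taken and linear models of limma 3.58.1 (lmFit, eBayes; R 4.3.3) were run on 18769 probe sets, with genotype as the only term and Benjamini-Hochberg adjustment over all of them. The fold minimum of 1 on the log2 scale follows the study. On simulated arrays for mutant against wild-type with 18769 probe sets, 50 probe sets were changed by each of -1.5, -0.5, 0.5 and 1.5. Of these 96%, 72%, 78% and 100% passed, with 8 wrong calls. In the data far more probe sets passed, 2751 lower and 4052 higher, and the adjusted p depends on that number. The simulated shares therefore do not give the power or error rate of this comparison. Symbols came from the platform annotation and were updated with a gene table of Release 6. The files name no assembly, so that table served for names, arms and gene order only. Modules follow a common assignment of subunits, which differs between structures for MED19, MED28 and MED30. All members were named, and those past the adjusted p (11) were given in full. The members, lists and alternatives were chosen with earlier results of these data known. The alternatives were other tests, variance models, scalings, filters, probe set rules and sets of arrays. Plots used matplotlib 3.10.9 in Python 3.11.15.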

Additional observations from a re-analysis of the deposited data

Results flagged for a closer look

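1 of the 52 sets of 5 arrays, made of 26 genes in both genotypes, held an array far from the others. *MED15* had a signal of 431 on wild-type replicate 4, as compared with 354 to 370 on the other wild-type arrays, and that gap took up 0.78 of the group's range on the log2 scale (Dixon's critical value for 5 arrays is 0.71). Chance places about 1 in 20 such sets past that value.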

How the results depend on the processing

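*MED17*, *MED11*, *MED19* and *MED6* kept their direction and passed the adjusted p in all 23 alternatives, and *CycC* in all but 1. Not all of these are separate checks. Fold changes from arithmetic means kept the adjusted p of the main fit. The median over the probe sets of a gene left the signals of every member but *skd* as they were. The fold-based counts, 1 up-regulated and 0 down-regulated, were otherwise unchanged and became 3 and 1 with a fold minimum of 0.5. The number of higher genes, 10, became 16 with median centring, 5 when arrays bright in gut enzymes were left out, 6 with both together and 3 without those bright in ejaculatory bulb genes, the last pair chosen after seeing the data. Scaling on ribosomal protein probe sets lowered the number to 7 (26.9%), as compared with 17.9% of all genes. With it *MED16*, *MED21* and *MED30* did not pass (limma, adjusted p = 0.096, 0.0502 and 0.064). Leaving out 1 array at a time gave 7 to 11 higher genes (26.9% to 42.3%), as compared with 18.7% to 25% of all genes. It gave 1 lower gene (3.85%), as compared with 16.3% to 20.5% of all genes. In these fits 1 member was up-regulated and 0 down-regulated, and the median log2-fold change was 0.18 to 0.24. The replicate number pairs the labels only: deviations of same-numbered arrays correlated at -0.32 to 0.48, and 1 of 5 wild-type arrays matched its own number best. With the replicate block 9 genes (34.6%) were higher and 1 (3.85%) was lower, as compared with 20% and 18.2% of all genes. Of the members 1 was up-regulated and 0 down-regulated, and the median stayed at 0.21. *MED21* alone lost its call with the block (adjusted p = 0.052 from limma).

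Only genes that did not pass the test changed sign, and the cause was not tested. *MED10* had -0.0062 with ribosomal protein scaling, -0.090 when arrays bright in gut enzymes were left out and -0.029 when centring was added to that. Leaving out 1 array at a time placed *MED10* at -0.028 to 0.067, *MED18* at -0.073 to 0.0017 and *MED27* at -0.060 to 0.017. With centring *MED18* had 0.055, *MED27* 0.085 and *kto* 0.021, and with array weights *MED27* had 0.022. With centring and no gut-bright arrays *kto* had 0.029 and *MED14* 0.015. Without the arrays bright in ejaculatory bulb genes *MED1* had -0.049, *MED15* -0.072 and *MED27* 0.0096. Signals carry no detection calls, so for dim genes such as *Cdk8* and *MED16* background and expression cannot be separated.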
